A study of Mus musculus with 10 samples.

Results

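The hormone receptors Esr1, Pgr and Prlr, the 4 ErbB receptors Egfr, Erbb2, Erbb3 and Erbb4, and the luminal transcription factors Gata3 and Foxa1 were examined across 10 mouse tumors. These 9 genes, of 19272 with a probe in the normalized table, were chosen by name. Probes were taken when the gene name in the array files was one of these names or a synonym. This gave 25 probes, 24 of them in the normalized table and 1 (a second Pgr probe) in the scanner files only.

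Esr1 and Pgr encode the nuclear receptors for estrogen and progesterone, and Prlr encodes the cell surface receptor for prolactin, which signals through Jak2 and Stat5. The ErbB receptors are tyrosine kinases that pair with each other on binding EGF family ligands or neuregulins. Erbb2 has no known ligand of its own, and Erbb3 has a weak kinase domain and recruits PI3 kinase when paired. Gata3 and Foxa1 open chromatin for the estrogen receptor and are markers of luminal cells, the inner layer of the mammary epithelium.

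The tumors were 5 sarcomatoid tumors and 5 adenocarcinomas, with 1 array of tumor RNA against a common reference for each. The labels call tumor 594 a sarcomatoid carcinoma, and the mammary and lung tumors numbered 323 and 307 sarcomatoid adenocarcinomas. The study's methods place them together in a metastatic sarcomatoid carcinoma group. The adenocarcinomas (tumors 105, 131, 470, 17 and 85) were primary mammary tumors of Pik3caH1047R;Trp53R270H;MMTV-Cre mice. Sarcomatoid tumor 594 was a primary Trp53R270H;MMTV-Cre tumor, as read from the study's methods, in which it is the primary with no lung partner. Tumors 323 and 307 were, in an order that the labels do not give, a Pik3caH1047R;Trp53R270H;MMTV-Cre primary and a Pik3caH1047R;MMTV-Cre primary with a spontaneous Trp53R245H mutation. The arrays named 323 lung and 307 lung were lung tumors grown after tail vein injection of cell lines from those primaries. The sarcomatoid group therefore held 5 arrays from 3 tumor origins. All tumors carried MMTV-Cre, which acts mainly in mammary epithelium, and the compound mutants were on a C57BL/6 background. The labels give no age. The Pik3ca and Trp53 alleles of the groups differed as well as their histology, so genotype and histology cannot be told apart in the sarcomatoid group.

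Values are log2 ratios of the red over the green channel in the authors' normalized table, averaged over the spots of a probe, and a difference between groups is a difference of mean log2 ratios. The labels give the green dye, Cy3, for the tumor. The green signal varied less between arrays than the red (mean SD of the log2 signal 0.737 against 0.975), so red was read as the tumor and green as the reference. That direction is likely, and with the dye label taken as given the sign of every value and difference below would turn. The share of probes well above background in red ran from 52.2% (tumor 85) to 83.0% (tumor 105). Adenocarcinoma 470 stood apart from the other adenocarcinomas. Its mean correlation across probes was 0.660 with the sarcomatoid arrays and 0.494 with the adenocarcinomas, and the mean log2 ratio of 18 luminal epithelial genes was -0.51 in it against 2.88 to 3.10 in the other 4. Of these 18 genes, 9 were above 0 in tumor 470, from 0.04 (Prom1) to 4.05 (Kit), and 9 below, from -0.65 (Grhl2) to -4.08 (Krt8) and -4.22 (Krt18). The main differences are therefore given with and without this array. Tumor 470 was set apart after its values were seen, in part on these luminal genes. Results without it depend on that choice for genes that are low in tumor 470 or near the sarcomatoid values in it. The arrays carried 3 protocol names in the scanner files, and arrays of 1 name are called a scan batch here. Whether a batch was a single scanning session was not checked. Tumor 323 was alone in batch 1, and tumors 307, 594, 105 and 470 were in batch 2. Both lung tumors were in batch 3 with tumors 131, 17 and 85. In batch 3 the sarcomatoid arrays were both lung tumors, so batch 3 differences set lung tumors against mammary adenocarcinomas.

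No probe of the 9 genes passed the limma test of sarcomatoid against adenocarcinoma with all 10 arrays, and no other probe did either. Called at an adjusted p under 0.05 were 0 of 24 probes, beside 0% of the 40196 tested. At an unadjusted p under 0.05 there were 3 of the 24, beside 9.23% of all probes. These were an Erbb2 and an Erbb3 probe with lower values in the sarcomatoid tumors and an Esr1 probe with higher values. Of the 24 probes, 20 had a lower mean in the sarcomatoid group, with a median difference of -0.49, beside a median of 0.00 over all probes, of which 50.2% were below 0. Probes of 1 gene share their target, so the 24 are not 24 independent values. In red, 10 of the 24 were well above background on all 10 arrays and 2 on none. The 20 include probes near background, such as that of Pgr, and differences near 0, such as those of Gata3 and the bright Erbb4 probe. In all 24 the 2 groups overlapped, beside 1.33% of all probes without overlap. With tumor 470 left out 4 of the 24 did not overlap (1 of Prlr, 1 of Erbb2 and 2 of Erbb3), beside 6.41% of all probes. Of these Erbb3 probes A_51_P414813 was dim. Among the 4 adenocarcinomas left, only tumor 105 was well above background in red for it. Without tumor 470 the count of called members stayed at 0 of 24, beside 1.54% of all probes, and the lowest adjusted p among them was 0.0527. The unadjusted p was then under 0.05 for 9 of the 24, 8 of them lower in the sarcomatoid tumors, beside 14.2% of all probes.

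**Figure D1:**
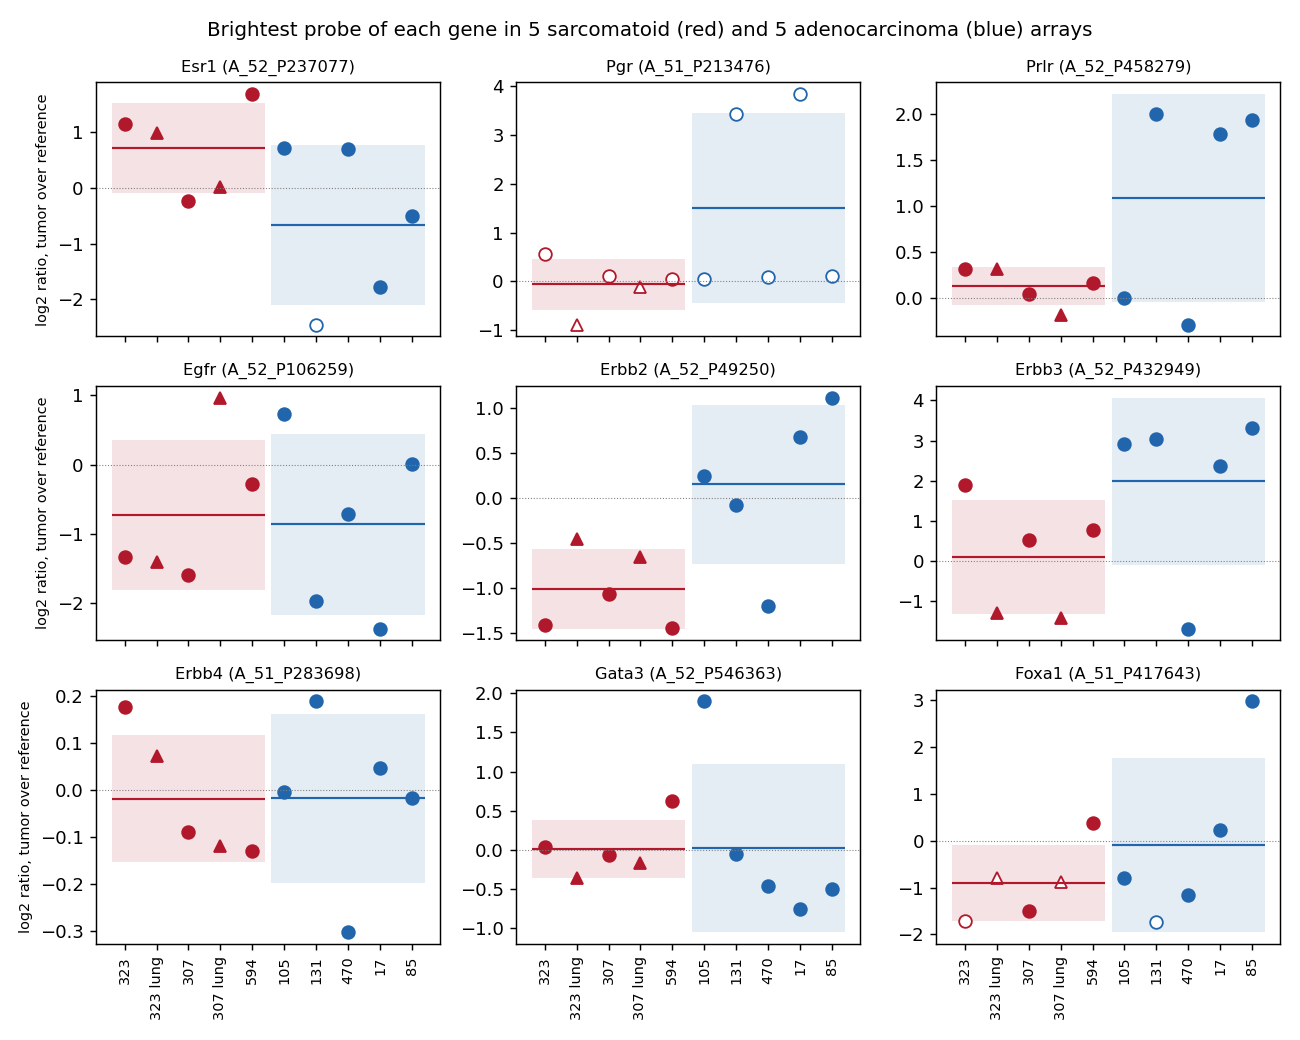
Log2 ratio of tumor over reference (y axis) for the probe of each gene with the highest mean tumor signal, in each tumor (x axis). Red marks sarcomatoid tumors, blue adenocarcinomas, triangles lung tumors and open symbols a tumor channel not well above background. Lines are group means and shaded bands 1 SD (n = 5). Erbb2 and Erbb3 overlap between the groups through tumor 470, at -1.20 and -1.68.

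The promoters of these genes are shown for the ErbB pair whose patterns differed and for Foxa1, which held matches to 3 of the 5 motifs searched. Of the 9 genes, 8 had a promoter in the RefSeq table (GRCm38.p6), 11 promoters in all, each of 300 bases that end 50 bases past a transcript start. None is shown for Erbb3. The motifs searched, on both strands, began with CAGGTG, the E-box bound by Zeb and Snail proteins. The motif of the Gata factors was searched as AGATAA, and that of the forkhead factors as TGTTTAC. An estrogen response half-site was searched as AGGTCA, and the GC box as GGGCGG. No matches overlapped each other in these promoters. Matches are in capitals.

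Erbb2 promoter, chr11:98412234-98412533, plus strand: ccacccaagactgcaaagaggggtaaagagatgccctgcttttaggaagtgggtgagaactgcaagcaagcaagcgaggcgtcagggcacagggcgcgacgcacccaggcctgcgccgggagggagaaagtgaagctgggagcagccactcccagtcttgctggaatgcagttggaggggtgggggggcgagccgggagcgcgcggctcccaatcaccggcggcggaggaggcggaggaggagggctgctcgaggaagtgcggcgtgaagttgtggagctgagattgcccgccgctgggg

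Egfr promoter, chr11:16751953-16752252, plus strand: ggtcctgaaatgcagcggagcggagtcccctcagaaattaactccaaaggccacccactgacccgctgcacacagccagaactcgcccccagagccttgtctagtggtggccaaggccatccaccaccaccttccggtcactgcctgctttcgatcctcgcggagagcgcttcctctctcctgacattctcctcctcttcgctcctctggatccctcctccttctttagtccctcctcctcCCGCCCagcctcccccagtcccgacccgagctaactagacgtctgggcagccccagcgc

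Foxa1 promoter, chr12:57546062-57546361, minus strand: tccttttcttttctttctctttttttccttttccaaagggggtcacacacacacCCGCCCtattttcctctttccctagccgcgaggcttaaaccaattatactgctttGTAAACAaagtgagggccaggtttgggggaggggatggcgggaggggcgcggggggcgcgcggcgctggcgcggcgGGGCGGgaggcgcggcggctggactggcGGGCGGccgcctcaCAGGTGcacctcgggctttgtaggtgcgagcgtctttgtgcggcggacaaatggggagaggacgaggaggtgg

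The Erbb2 promoter had no match to any of the 5 motifs and 21 CpG sites, the Egfr promoter 1 GC box and 15, and the Foxa1 promoter 3 GC boxes, 1 E-box, 1 forkhead match and 26. The median over all promoters was 7 CpG sites. CAGGTG was present in 3 of the 11 promoters (Pgr, Foxa1 and 1 of 3 of Prlr) and in 20.2% of all 32851, TGTTTAC in 2 of 11 and 3.65%, and GGGCGG in 4 of 11 and 35.7%. AGATAA and AGGTCA were in 0 of 11, against 11.2% and 16.3%. A match is a description of the letters only.

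Erbb2, the receptor tyrosine kinase amplified in a subset of human breast cancers, had 2 probes in the table, both to the same transcript model. The brighter one (A_52_P49250, chr11:98545828-98545887 in the mm7 build) had log2 ratios of -1.41 in tumor 323, -0.45 in 323 lung, -1.06 in 307, -0.66 in 307 lung and -1.45 in 594. In the adenocarcinomas they were 0.24 (105), -0.07 (131), -1.20 (470), 0.68 (17) and 1.12 (85). All sarcomatoid values lay below 0 and below the values of 4 adenocarcinomas, and tumor 470 lay among the sarcomatoid values. The probe is on the array in 10 copies, and the median SD between copies was 0.06 (0.04 to 0.49 over the arrays). The sarcomatoid mean was -1.01 ± 0.44 and the adenocarcinoma mean 0.15 ± 0.88 (SD, n = 5 each), a difference of -1.16 ± 0.41 (SE) or a ratio of 0.448. The limma test gave an adjusted p of 0.432 (unadjusted 0.0154). In bulk tumors, fewer cells that carry Erbb2 RNA and less of that RNA per cell cannot be told apart.

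Without tumor 470 the Erbb2 difference was -1.50 ± 0.33 (SE), with an adjusted p of 0.0527 and no overlap between the groups. Among arrays of scan batch 2, where tumor 470 was 1 of 2 adenocarcinomas, Erbb2 differed by -0.77, and among those of batch 3 by -1.13. The 3 mammary sarcomatoid tumors alone gave 0 of 24 member probes called against the adenocarcinomas, beside 0% of all probes, and 1 of 24 at an unadjusted p under 0.05, beside 8.6%. That 1 was this Erbb2 probe, which differed by -1.46 ± 0.46 (SE), with an adjusted p of 0.556, and by -0.77 with scan batch as a term. This last value is the batch 2 difference again, since mammary sarcomatoid tumors and adenocarcinomas shared only batch 2. The second, dimmer Erbb2 probe (A_51_P216179) ran from -1.50 to -0.27 in the sarcomatoid tumors and from -1.47 (470) to 1.02 (85) in the adenocarcinomas. Its difference was -0.78 ± 0.43 (SE), with an adjusted p of 0.612, and -0.27 in the renormalized scanner values. Across the 10 arrays the 2 probes had a Pearson correlation of 0.934.

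Erbb3, the ErbB receptor that binds neuregulins and couples to PI3 kinase, had the widest range over the tumors among the brightest probes of the 9 genes (A_52_P432949, chr10:128069461-128069520 in mm7). This probe carries the gene name Erbb3 in the files but a predicted transcript accession, and its coordinates lie outside the span of the other 4 Erbb3 probes. Its log2 ratios were 1.89 (323), -1.29 (323 lung), 0.54 (307), -1.40 (307 lung) and 0.78 (594) in the sarcomatoid tumors. In the adenocarcinomas they were 2.91 (105), 3.05 (131), -1.68 (470), 2.36 (17) and 3.32 (85). The values fell into an order with 4 adenocarcinomas on top, the 3 mammary sarcomatoid tumors next, and both lung tumors with tumor 470 at the bottom. The group means were 0.10 ± 1.42 and 1.99 ± 2.08 (SD, n = 5 each), a difference of -1.89 ± 0.94 (SE) with an adjusted p of 0.571. Without tumor 470 the difference was -2.81 ± 0.63 (SE), with an adjusted p of 0.0528 and no overlap. For arrays of scan batch 2 it was 0.04, and for those of batch 3, where the sarcomatoid arrays were the lung tumors, it was -4.26.

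The other 4 Erbb3 probes were dimmer. The brightest of them (A_51_P342050) had values of -0.20 to 0.71 in the sarcomatoid tumors and 0.26 to 2.01 in the adenocarcinomas, and was well above background in red on 2 sarcomatoid and 5 adenocarcinoma arrays. Its difference was -1.001 ± 0.38 (SE), with an unadjusted p of 0.0229 and an adjusted p of 0.463. Its correlation with the brightest probe was 0.745 over the 10 arrays, and those of the other 3 were 0.167, 0.118 and 0.823. All 5 probes had a lower mean in the sarcomatoid group, from -0.24 to -1.89. For the 4 dimmer probes the difference in the renormalized scanner values ran from -0.41 to -0.11, and was smaller than in the table for 3 of them.

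Egfr, the receptor for EGF, Tgfa, amphiregulin and related ligands, had 6 probes and no direction between the groups. The brightest (A_52_P106259, chr11:16865821-16865880 in mm7, transcript variant 1) had log2 ratios of -1.33 (323), -1.40 (323 lung), -1.59 (307), 0.97 (307 lung) and -0.28 (594) in the sarcomatoid tumors. In the adenocarcinomas they were 0.72 (105), -1.97 (131), -0.71 (470), -2.36 (17) and 0.01 (85). Both groups spread over the same range, and the highest sarcomatoid value was that of 307 lung. The difference was 0.14 ± 0.65 (SE) with an adjusted p of 0.969, and over the 6 probes differences ran from -0.59 to 0.14. The sign of this difference turned under several of the alternatives, so no direction is given.

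Of the 6 Egfr probes, 2 are to transcript variant 1, which encodes the full receptor, 2 are to variant 2, which encodes a shorter form without the kinase domain, and 2 carry the accession of neither. The 2 variant 2 probes (A_51_P392242 and A_52_P56471) lie at chr11:16839391-16839450 and chr11:16835551-16835610 in mm7, and correlated with each other at 0.967. The brightest of them had values of -0.82 (323), -1.18 (323 lung), -1.03 (307), 0.64 (307 lung), -0.07 (594), 0.45 (105), 0.28 (131), -0.26 (470), -1.34 (17) and 1.36 (85). Variant 2 minus variant 1, each the mean of 2 probes, was 1.79 in tumor 131, 0.98 in 85 and 0.74 in 17, against -0.06 in 105 and 0.48 in 470. In the sarcomatoid tumors it was 0.84 (323), 0.18 (323 lung), 0.84 (307), 0.08 (307 lung) and 0.34 (594). The widest gap was in tumor 131, where variant 1 was at -1.68 and variant 2 at 0.11. The group means of this gap were 0.46 ± 0.36 and 0.78 ± 0.68 (SD, n = 5 each), which lay within each other's spread, and the gap was noticed in the data and not tested.

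Erbb4, the receptor for neuregulins that acts with Stat5 in lactation, was near the reference in every tumor by its brightest probe. Its log2 ratios ran from -0.13 to 0.18 in the sarcomatoid tumors and from -0.30 to 0.19 in the adenocarcinomas, a difference of 0.00 ± 0.21 (SE) with an adjusted p of 1.0. The coordinates of this probe (A_51_P283698) span chr1:68285099-68286327 in mm7, more than a single probe's length. The other 2 Erbb4 probes, to the same predicted transcript, were well above background in red on 1 and 0 of 10 arrays. The bright and the dim probes therefore disagree on whether Erbb4 RNA was detected, and which reflects the gene was not tested.

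**Figure D2:**
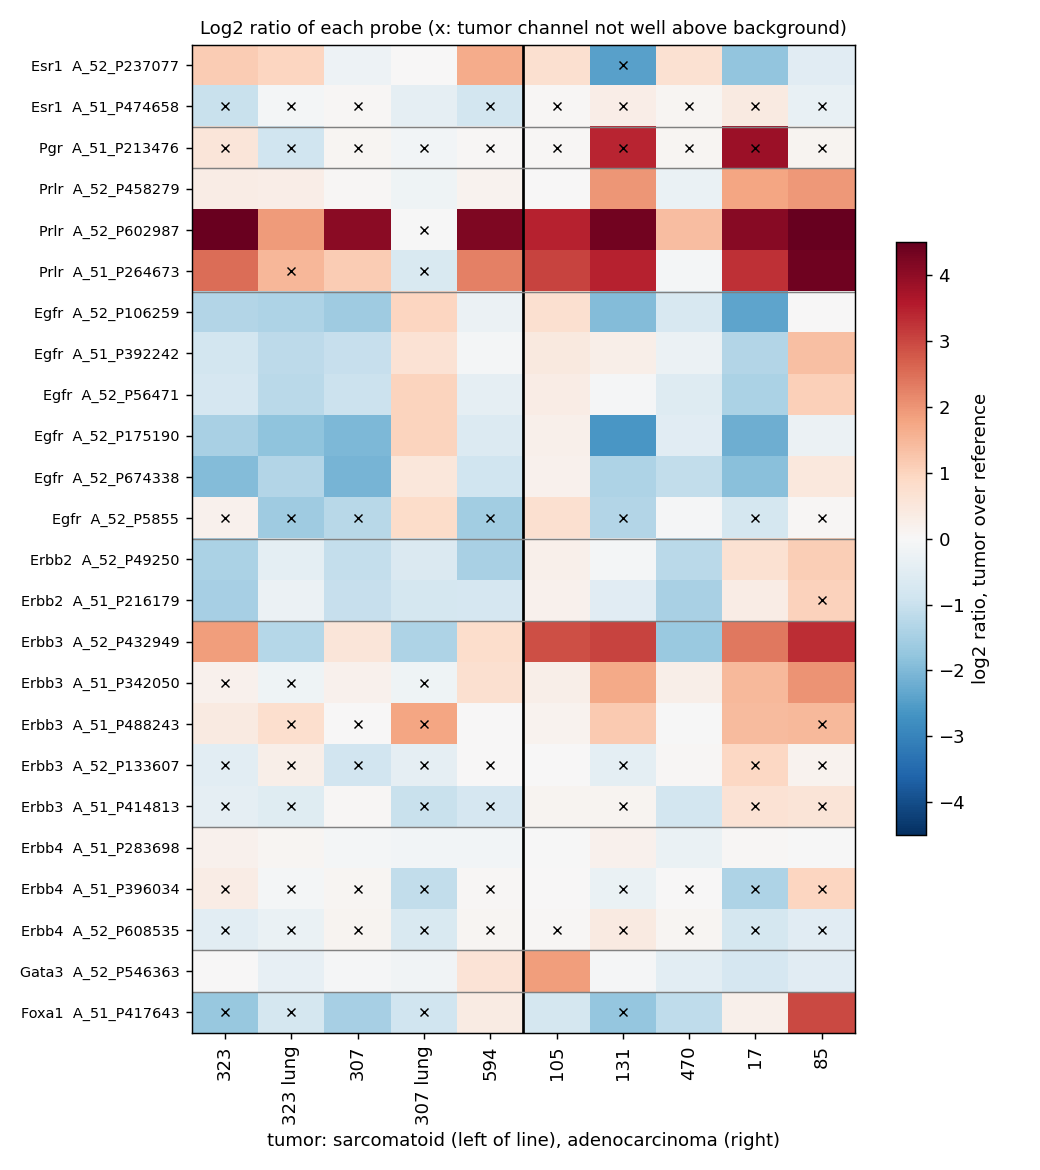
Log2 ratio (colour) of the 24 probes in the normalized table (rows, by gene) in the 10 tumors (columns). A cross marks a tumor channel not well above background, and the line parts sarcomatoid from adenocarcinoma. The Prlr probes reach 4.48 in tumor 85, and the high Pgr values of tumors 131 and 17 carry crosses.

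Esr1, the estrogen receptor alpha gene, was the member with the largest positive difference, a higher mean in the sarcomatoid tumors. Its bright probe (A_52_P237077, chr10:5343241-5343300 in mm7, in 10 copies) had log2 ratios of 1.14 (323), 0.98 (323 lung), -0.23 (307), 0.01 (307 lung) and 1.69 (594). In the adenocarcinomas they were 0.72 (105), -2.46 (131), 0.69 (470), -1.77 (17) and -0.51 (85). The 3 lowest values were all adenocarcinomas, the lowest (tumor 131) was not well above background in red, and tumors 105 and 470 lay within the sarcomatoid range. The means were 0.72 ± 0.80 and -0.67 ± 1.43 (SD, n = 5 each), a difference of 1.38 ± 0.63 (SE) or a ratio of 2.61. The adjusted p was 0.542 (unadjusted 0.0499), and 0.229 without tumor 470. In the renormalized scanner values the difference was 0.79. Between arrays of scan batch 2 it was 0.02, and between those of batch 3 it was 2.08. The second Esr1 probe was well above background in red on 1 of 10 arrays, and its correlation with the bright probe was -0.690.

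Pgr, an estrogen target in luminal cells, was not detected. Neither of its 2 probes was well above background in either channel on any array, so no fold is given. The table nevertheless lists log2 ratios of 3.44 in tumor 131 and 3.85 in tumor 17 for the probe A_51_P213476, beside -0.89 to 0.56 in the other 8. In the renormalized scanner values the same spots stood at 0.32 and 0.32. These table values are ratios of signals at background and say nothing on Pgr RNA.

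Prlr had 3 probes, each to a different transcript, and they differed in pattern. The brightest (A_52_P458279, chr15:10387524-10387583 in mm7) had log2 ratios of 0.32 (323), 0.31 (323 lung), 0.04 (307), -0.18 (307 lung) and 0.17 (594). In the adenocarcinomas they were 0.01 (105), 2.0 (131), -0.29 (470), 1.78 (17) and 1.93 (85). Tumors 131, 17 and 85 were high and every other tumor was near the reference. The group difference was -0.95 ± 0.46 (SE) with an adjusted p of 0.560, and -1.30 ± 0.41 (SE) with 0.155 without tumor 470. The 3 high tumors are the 3 adenocarcinomas of scan batch 3, and the 2 lung tumors of that batch were at 0.31 and -0.18. The difference among batch 2 arrays was 0.25, and among batch 3 arrays -1.84.

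The second Prlr probe (A_52_P602987, chr15:10394904-10394963) was high over the reference in most tumors. It had log2 ratios of 4.43 (323), 1.92 (323 lung), 4.07 (307), -0.03 (307 lung) and 4.19 (594), and 3.47 (105), 4.36 (131), 1.38 (470), 4.09 (17) and 4.48 (85). The lung tumors and tumor 470 were the 3 low ones, the same tumors as at the bottom for Erbb3. Its reference channel was well above background on 3 of 10 arrays and its tumor channel on 9 (307 lung was not), so the ratios depend on a reference near background, and in the renormalized scanner values the highest was 3.52. The third probe (A_51_P264673) was well above background in red on 3 sarcomatoid and 5 adenocarcinoma arrays and had no overlap between the groups without tumor 470. Its means were 1.35 ± 1.26 and 2.81 ± 1.70 (SD, n = 5 each), a difference of -1.46 ± 0.80 (SE) with an adjusted p of 0.609, and of -2.19 with 0.0970 without tumor 470. Correlations between the 3 Prlr probes over the arrays were 0.573, 0.784 and 0.846.

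Gata3, a zinc finger factor that maintains luminal identity and also acts in T cells, did not separate the groups. Its probe (A_52_P546363) had log2 ratios of 0.03 (323), -0.36 (323 lung), -0.06 (307), -0.17 (307 lung), 0.62 (594), 1.90 (105), -0.06 (131), -0.46 (470), -0.76 (17) and -0.50 (85). Tumor 105 was far above the other 9, and tumor 594 was next. The difference was -0.01 ± 0.46 (SE) with an adjusted p of 0.998. The mean log2 ratio of 8 T cell markers was 0.50 in tumor 105 and 0.64 in tumor 594, and -1.57 to 0.55 in the other 8. The part of T cells in the Gata3 value was not tested.

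Foxa1, a forkhead factor that opens chromatin for the estrogen receptor, was dim. Its probe (A_51_P417643) was well above background in red on 2 sarcomatoid and 4 adenocarcinoma arrays. The log2 ratios were -1.70 (323), -0.79 (323 lung), -1.50 (307), -0.89 (307 lung), 0.37 (594), -0.80 (105), -1.74 (131), -1.15 (470), 0.23 (17) and 2.97 (85). Tumor 85 was the highest, and it was at 2.29 in the renormalized scanner values. The group difference was -0.81 ± 0.77 (SE) with an adjusted p of 0.793. Without tumor 85 it was -0.04, so that 1 array carried it.

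**Figure D3:**
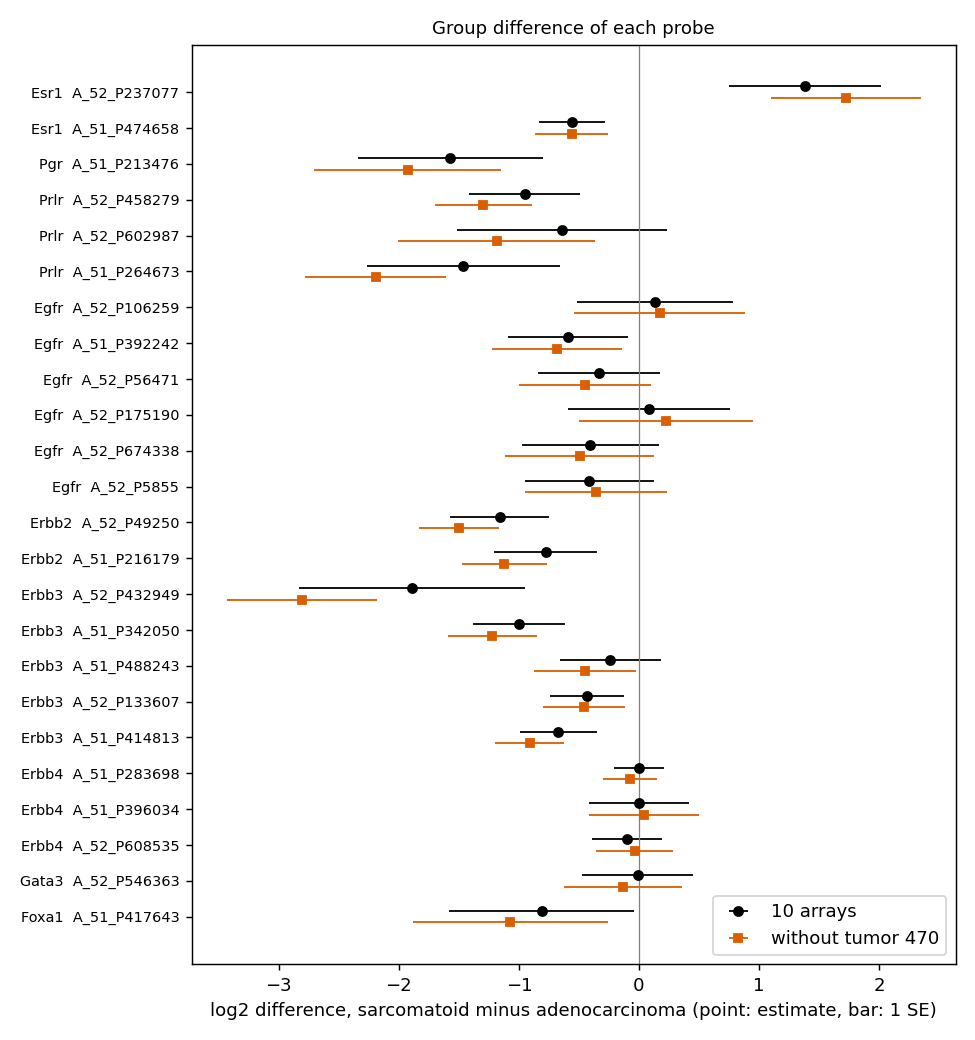
Difference of mean log2 ratios, sarcomatoid minus adenocarcinoma (x axis), for the 24 probes (y axis), with all 10 arrays (black) and without tumor 470 (orange). Points are limma estimates and bars 1 SE. Of the 24 estimates with all arrays 20 lie below 0, some of them from probes near background. The Erbb3 probe A_52_P432949 moves from -1.89 to -2.81.

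The 2 lung tumors were next compared with the 3 sarcomatoid tumors of the mammary gland, of which 323 and 307 are the primaries their cell lines came from. Of 24 member probes 0 were called in this limma test, beside 0.0249% of all probes, and 1 had an unadjusted p under 0.05, beside 10.7%. That was the Prlr probe A_52_P602987, at 0.95 in the lung tumors and 4.23 ± 0.18 (SD, n = 3) in the mammary ones. The difference was -3.28 ± 0.86 (SE), with an unadjusted p of 0.00285 and an adjusted p of 0.272. In the renormalized scanner values it was -1.69, and with scan batch as a term -5.07. Its reference channel was well above background on 1 of these 5 arrays (594), so its size is uncertain. Within tumor number 323 the lung tumor was lower by -2.51, and no value is given within 307, where the lung tumor was not well above background. Without tumor 470, which then no longer adds to the estimate of the spread, its adjusted p was 0.0535. The Erbb3 probe A_52_P432949 was lower in the lung tumor by -3.18 within 323 and -1.94 within 307, a difference of -2.41 ± 1.22 (SE) with an adjusted p of 0.514, and of 0.0901 without tumor 470. With scan batch as a term it was -4.30. For both probes the offset between batches 2 and 3 was then set by the adenocarcinomas alone, tumor 470 among them. The values with this term are the batch 3 difference of the groups less the batch 2 difference. They are therefore no check of the site difference.

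Erbb2 and Egfr differed in other ways between the sites. The bright Erbb2 probe was higher in the lung tumor by 0.96 within 323 and 0.40 within 307, a difference of 0.75 ± 0.57 (SE) with an adjusted p of 0.674. All 6 Egfr probes were higher in 307 lung than in tumor 307, by 1.67 to 2.99, while in the 323 pair they differed by -1.79 to 0.61, the lowest being a dim probe. With 1 array per tumor and site these pair values have no replicate check. Egfr is expressed by fibroblasts too, and the mean log2 ratio of 8 fibroblast markers was 2.0 in 307 lung against 0.15 in tumor 307, and -1.11 against -0.33 in the 323 pair. Their part in the Egfr values was not tested. The lung arrays were all in scan batch 3 and the mammary ones in batches 1 and 2, so for these tumors site and batch cannot be told apart.

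**Figure D4:**
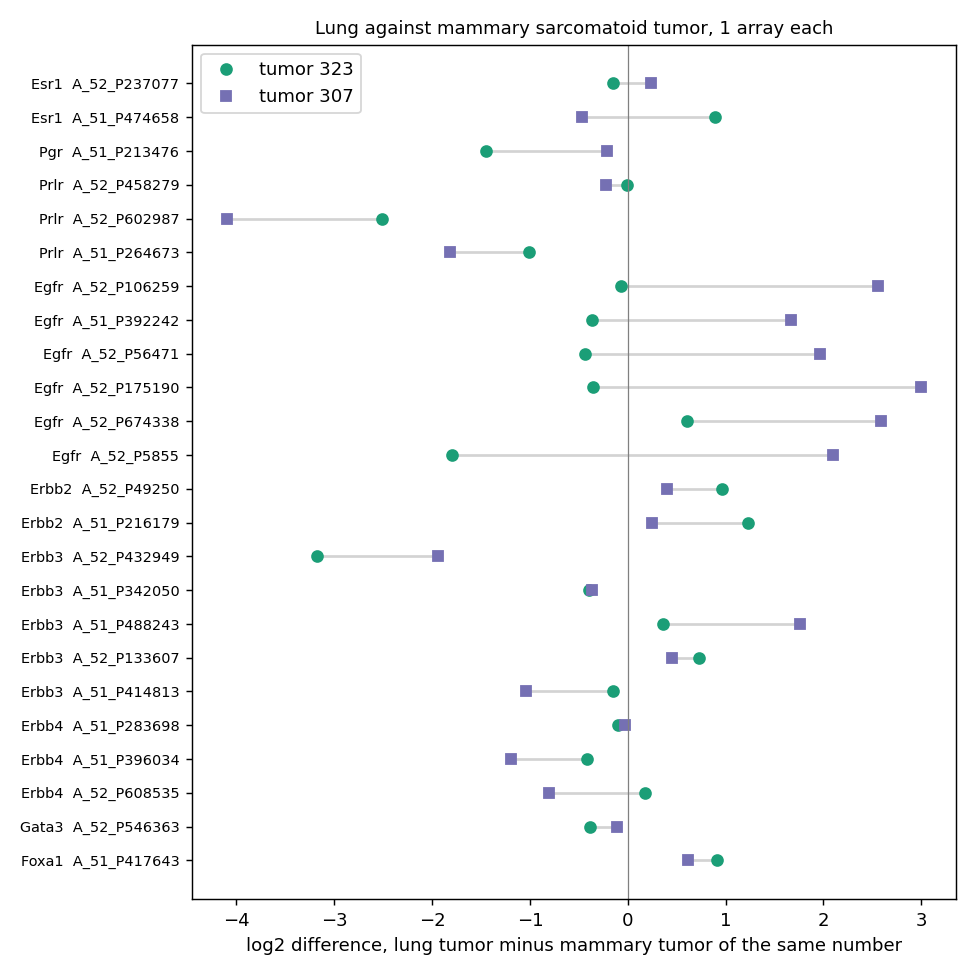
Log2 ratio of the lung tumor minus that of the mammary tumor of the same number (x axis) for the 24 probes (y axis), circles for tumor 323 and squares for tumor 307, each from 1 array per site. The 6 Egfr probes lie at 1.67 to 2.99 in tumor 307, and the Prlr probe A_52_P602987 is below 0 in both, with 307 lung not well above background for it.

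Of the ligands of the ErbB receptors, 10 of 11 had a probe, and 0 passed the test with all arrays. The median difference was -0.33, and 8 of 10 were below 0, beside 50.2% of all probes. Without tumor 470 the median was -0.09. With the mammary sarcomatoid tumors alone against all adenocarcinomas it was 0.14, and 4 of 10 were below 0. Tgfa, a ligand of Egfr, had a mean of -0.43 ± 0.28 in the sarcomatoid tumors and 1.22 ± 0.83 in the adenocarcinomas (SD, n = 5 each). For Tgfa the groups did not overlap, beside 1.33% of all probes without overlap. Its difference was -1.65 ± 0.38 (SE), with an adjusted p of 0.330, and -1.93 with an adjusted p of 0.0228 without tumor 470. In the renormalized scanner values it was -0.82. Of the others named by the rule, Egf differed by -0.60, Hbegf by 0.55 and Nrg3, not above background on any array, by -0.27. Between lung and mammary sarcomatoid tumors 4 of the 10 ligands had an unadjusted p under 0.05, beside 10.7% of all probes. All 4 were lower in the lung tumors and none was called: Epgn (-3.57), Hbegf (-2.13), Nrg3 (-1.58) and Ereg (-1.24). Ereg was well above background in red on 6 arrays.

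Of 21 ErbB adaptors and feedback regulators 0 were called, with a median difference of -0.08. The largest named difference was that of Grb7, an adaptor whose gene lies beside Erbb2, at -2.77 ± 1.19 (SE) with an adjusted p of 0.513. Without tumor 470, at -3.50 for Grb7, it was -3.92 with an adjusted p of 0.0408. Dusp4, a phosphatase of MAP kinases, differed by -1.10, Pik3r1, the regulatory subunit of PI3 kinase, by -1.25, and the adaptor Shc1 by 0.75, with adjusted p of 0.405, 0.476 and 0.446. Without tumor 470 Pik3r1 differed by -1.66, with an adjusted p of 0.0656.

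Of 16 estrogen and progesterone responsive and paracrine genes 0 were called, with a median of -0.16. Cxcl12, a chemokine also made by stromal cells, differed by 2.63 ± 0.81 (SE) with an adjusted p of 0.387. Xbp1 (-1.48), Cited1 (-1.04) and Tnfsf11 (1.81), the ligand RANKL through which progesterone acts, had adjusted p of 0.501 to 0.588. Tnfsf11 was well above background in red on 7 arrays, and differed by 0.12 in the renormalized scanner values. Of 13 genes of the prolactin, Jak2 and Stat5 pathway 0 were called, and the median was 0.03. Stat5a differed by -0.98, Stat5b by -0.81, Socs1, a feedback inhibitor, by 1.42 and Socs2 by -1.04, with adjusted p of 0.476 to 0.667. Elf5, a target of prolactin in alveolar cells, was lower in the lung than in the mammary sarcomatoid tumors by -5.68, with an adjusted p of 0.138.

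Of 15 steroid receptor coregulators and pioneer partners 0 were called, and 12 lay below 0, beside 50.2% of all probes, with a median of -0.34. Tfap2a, which encodes a factor that binds near estrogen receptor sites, had no overlap between the groups and differed by -1.08 ± 0.28 (SE), with an adjusted p of 0.330 and of 0.0516 without tumor 470. Tfap2c (-2.77) and Nrip1 (-0.41) had adjusted p of 0.557 and 0.591. Of 17 other nuclear receptors 0 were called, with a median of 0.00. Nr2f1, above background on 5 arrays, differed by 1.93 (0.70 in the renormalized scanner values), Vdr by -1.23, Esr2, above background on 1 array, by 0.57 and Esrra by -0.44, with adjusted p of 0.394 to 0.589.

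The luminal epithelial genes all lay in 1 direction: 18 of 18 had a lower mean in the sarcomatoid tumors, with a median of -1.55, beside 50.2% of all probes below 0. With all arrays 0 were called and 7 had an unadjusted p under 0.05, beside 9.23% of all probes, and without tumor 470 4 were called, beside 1.54%. Tumor 470 was set apart in part by its low values in this same list. The calls without it therefore depend on that choice and are not a separate test. Of the genes named by the rule, Krt18 had an adjusted p of 0.463 with all arrays, Cd24a (-2.33) of 0.386, Elf3 of 0.458 and Mlph of 0.430. The 4 called were Krt8 (-3.80, adjusted p 0.0342), Krt18 (-4.56, 0.0286), Elf3 (-2.14, 0.0177) and Mlph (-1.77, 0.0300). With the mammary sarcomatoid tumors alone against all adenocarcinomas, 15 of the 18 genes had a lower mean, with a median of -0.97. Of the 18, 1 then had an unadjusted p under 0.05, beside 8.6% of all probes. Between lung and mammary sarcomatoid tumors 17 were lower in the lung, with a median of -2.64. The mean log2 ratio of the list was 2.88 to 3.10 in the adenocarcinomas other than 470, 1.15 to 1.69 in the mammary sarcomatoid tumors, and -1.31 and -0.75 in the lung tumors. In Erbb3 (A_52_P432949) as in this list, 4 adenocarcinomas were highest and the mammary sarcomatoid tumors next, with the lung tumors and tumor 470 at the bottom. Among 22237 named probes searched the 3 other genes with the most similar pattern over the 10 arrays were Tmem125, Nrtn and Krt18 (Pearson r 0.984, 0.977 and 0.976). For Erbb2 they were Rnf103, Itpr2 and Irx2 (0.969, 0.968 and 0.963). For the bright Egfr probe they were Col16a1, Eln and Meox1 (0.958, 0.953 and 0.930), of which Col16a1 and Eln encode extracellular matrix proteins. For Gata3 they were Gsta2, Cd79b and Jchain (0.961, 0.938 and 0.933), the last 2 of B lineage cells, for Prlr Aire, Nit1 and Eif4b (0.981, 0.967 and 0.954), and for Esr1 Rasgef1b, Cnr2 and Slc9a9 (0.958, 0.951 and 0.947). For Foxa1 they were Ercc6l, Hnrnpab and Vipr1 (0.945, 0.943 and 0.909). Those for Erbb4 (among them Akr1b10 and Glt28d2) and Pgr (Mbtd1, Emc4 and Card14) rest on a probe that hardly varied and on one at background. These are the highest of many correlations over 10 arrays and are given as a description.

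**Figure D5:**
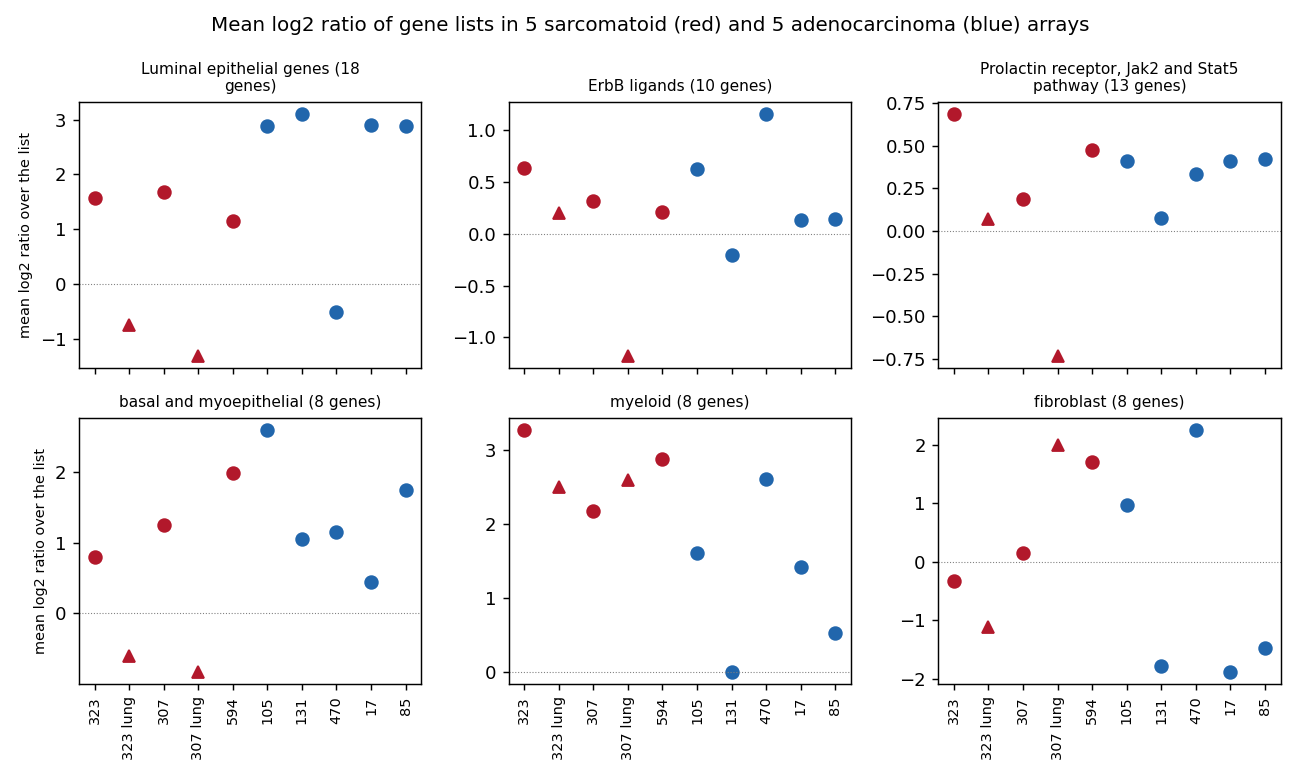
Mean log2 ratio of tumor over reference (y axis) over the genes of 6 lists in each tumor (x axis), red for sarcomatoid, blue for adenocarcinoma and triangles for lung tumors. The luminal list is at 2.88 to 3.10 in 4 adenocarcinomas and -0.51 in tumor 470, and the myeloid list at 2.62 in tumor 470.

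Of the marker lists for other cell types, the myeloid list leaned to the sarcomatoid tumors. The mean log2 ratio of 8 myeloid markers was 2.18 to 3.28 in the sarcomatoid tumors and 0.00 to 1.61 in the adenocarcinomas other than 470, which was at 2.62, and all 8 were detected on all arrays. Of these, 7 of 8 had an unadjusted p under 0.05 with a higher mean in the sarcomatoid tumors, beside 9.23% of all probes, and 0 were called. Without tumor 470 2 were called (Itgam and Adgre1), beside 1.54% of all probes. Tumor 470 lay within the sarcomatoid range of this list, so these calls depend on leaving it out. The 8 basal and myoepithelial markers were lower in the lung tumors (-0.83 and -0.60) than in the mammary sarcomatoid tumors (0.80 to 1.99), and ran from 0.44 to 2.61 in the adenocarcinomas. The other lists overlapped between the groups. T cell markers ran from -1.57 to 0.64 in the sarcomatoid tumors and from -1.03 to 0.50 in the adenocarcinomas. In the same order of groups, 8 fibroblast markers ran from -1.11 to 2.0 and from -1.88 to 2.25, 5 endothelial markers from 2.68 to 4.38 and from 2.79 to 4.47, 6 adipocyte markers from 0.14 to 3.15 and from 0.36 to 4.25, and 6 skeletal muscle markers from -2.06 to 2.86 and from -1.97 to 5.44. Of 8 lung epithelium markers, Nkx2-1 and Sftpa1 were at background on all arrays, and the mean was -0.15 and 0.60 in the lung tumors and 0.31 to 0.66 in the mammary sarcomatoid ones. The share of these cells in the differences of Erbb2, Erbb3, Prlr and Esr1 was not tested.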

How the data were processed

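RNA of 10 mouse tumors was measured on Agilent 2-colour arrays. The authors deposited scanner files, whose spot intensity and local background come from the Feature Extraction software, and a normalized table of log2 ratios, for which their methods and processing notes name limma without version or steps. The scanner files also hold a log10 ratio of red over green, deposited as the scanner software computed it. Set against these ratios, each table column matched its own array (r 0.868 to 0.926, against at most 0.744 for any other array). Table values were used as deposited, spots of a probe averaged, and 40196 probes tested with limma 3.58.1 (R 4.3.3; two-sided, Benjamini-Hochberg, threshold 0.05) without a filter. Of the array's probes, 978 were not in the table, which also holds 134 rows of a negative control probe. Groups came from the labels, with both sarcomatoid labels taken as a single group. Sarcomatoid and adenocarcinoma were compared on all arrays, and a fit of 3 groups parted the sarcomatoid arrays by site. P-values measure the spread between arrays, and lung and mammary tumors of 1 number share an origin. The renormalized scanner values are an alternative (normexp, offset 50, then loess, outlier spots left out). "Well above background" is the scanner software's flag. Array number limits the precision. The table stretches ratios of dim spots beyond the scanner values.

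All probes of the 9 genes were given. The probe with the highest mean red signal stood for a gene in the lists, from each list up to 4 genes with the smallest unadjusted p were named, and 3 genes most like each member were sought among probes well above background on at least 8 arrays. Other genes named, such as the called luminal genes, the ligands by site and Elf5, were chosen after their values were seen. The members and the 15 lists (7 of pathways, 8 of cell type markers) were chosen with earlier results of these data known. Of the genes these rules name, 2 are not reported here. Coordinates of probes are those of the mm7 build in the scanner files. The script was tested on simulated data. Alternatives tried were 3 normalizations of the scanner files, quantile normalization, a detection filter (at least 5 arrays), scan batch as a term, slide or tumor number as a block, 1 value per tumor number, the mean over a gene's probes, and leaving out each array.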

Additional observations from a re-analysis of the deposited data

Results flagged for a closer look

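Of 48 sets of 5 values (24 probes in 2 groups), 2 held a tumor set well apart from its group (gap over range above Dixon's critical value of 0.710), where chance alone gives about 2.4. Erbb3 (A_52_P432949) was at -1.68 in adenocarcinoma 470, against 2.36 to 3.32 in the other 4. Gata3 (A_52_P546363) was at 1.90 in adenocarcinoma 105, against -0.76 to -0.06 in the other 4. Both were well above background.

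In the deposited table the groups did not overlap in either scan batch for 2 Prlr probes of the 24 searched. The order of the groups was opposite in the 2 batches. The difference between batches was not tested, and how often all probes show this pattern was not counted. The 2 probes are of 1 gene and correlated at 0.573, so they are not independent. For A_52_P458279 the sarcomatoid minus adenocarcinoma difference was 0.25 in batch 2 and -1.84 in batch 3, and for A_52_P602987 it was 1.70 and -3.37. In the renormalized scanner values the batch 2 groups overlapped for both probes (0.07 and 0.24 against 0.17 and -0.11 for A_52_P458279, and 1.63 and 2.41 against 2.74 and 0.54 for A_52_P602987), so the pattern was not seen there. The sarcomatoid arrays of batch 3 were the lung tumors and batch 2 held tumor 470, so batch, site and tumor cannot be told apart.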

How the results depend on the processing

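The counts of called probes over the whole array depended most on tumor 470. For sarcomatoid against adenocarcinoma 0 probes were called with all arrays, 1 after normexp and median centring of the scanner files, 2 with 1 value per tumor number, and 0 to 618 when each array was left out in turn, 618 being without tumor 470. Between lung and mammary sarcomatoid tumors 10 were called, 2 after normexp and loess, 3 after normexp and median centring, 3 after loess without background correction, 22 after quantile normalization, 0 with scan batch as a term, 0 with tumor number as a fixed replicate block and 0 to 84 with each array left out (84 without tumor 470). Between mammary sarcomatoid tumors and adenocarcinomas they were 0, and 0 to 210 (210 without tumor 470). None of the 11 probes of the 9 genes for which the alternatives were run passed the threshold under any of them.

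The sign of 3 differences near 0 between sarcomatoid and adenocarcinoma turned, and the cause was not tested. Egfr (A_52_P106259) was -0.0488 after median centring, -0.0139 after quantile normalization, -0.1012 with slide as a block, -0.2536 as the mean over its probes, and -0.2875 to 0.5322 with each array left out. Erbb4 (A_51_P283698) was 0.0094 with slide as a block, 0.0004 with tumor number as a random replicate block, and -0.0715 to 0.0515 with each array left out. Gata3 was 0.0243 after quantile normalization, 0.0908 with 1 value per tumor number, and -0.2058 to 0.458 with each array left out. Prlr (A_52_P602987) ran from -1.184 to 0.096 with each array left out, the highest without 307 lung. Between lung and mammary sarcomatoid tumors Egfr ran from -0.3338 (without 307 lung) to 2.033 (without 323 lung). Between mammary sarcomatoid tumors and adenocarcinomas Erbb3 was 0.0422 with scan batch as a term, which is its batch 2 difference. The differences of Esr1, Erbb2, Erbb3, Foxa1 and the brightest Prlr probe between sarcomatoid and adenocarcinoma kept their sign in all alternatives run, though without tumor 85 Foxa1 was at -0.0418. The arrays of batch 2 alone were not among these alternatives. There the sign turned for Erbb3 (0.04), Foxa1 (0.40) and the brightest Prlr probe (0.25), and held for Erbb2 (-0.77) and Esr1 (0.02). Signals near background limit Pgr, Foxa1, the dim Erbb3 and Erbb4 probes and 2 Prlr probes.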
